A study of Mus musculus with 3 samples.

Results

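The 10 genes described here encode receptors for acetylcholine and the enzyme that breaks it down. They are the nicotinic receptor genes Chrna2, Chrna3, Chrna4, Chrna5, Chrna7 and Chrnb2, the muscarinic receptor genes Chrm1, Chrm2 and Chrm3, and Ache, which encodes acetylcholinesterase. They were listed by name from the 31053 genes in the count matrices, and all 10 were found in every matrix. GFP+ cells had been sorted from the dissected neocortex of SstCre/+;RCEfl/+ animals, and 1 10x Genomics library was made at each stage, from 6 pooled animals at E16.5 and 3 each for P1 and P5. All 3 groups carried the same alleles. Cre expressed from Sst switches on a GFP reporter that stays on, so the sort collects cells with a history of Sst expression, whatever their Sst level at collection.

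Acetylcholine reaches the cortex mainly through axons from the basal forebrain. Nicotinic receptors are ion channels built from several subunits and open when acetylcholine binds, whereas muscarinic receptors signal through G proteins. Chrm1 and Chrm3 encode receptors that couple mainly to Gq proteins and phospholipase C, and Chrm2 encodes a receptor that couples to inhibitory Gi and Go proteins. SST+ interneurons are among the cortical cells known to respond to acetylcholine, and adult Chrna2 expression is known in Martinotti cells, whose axons reach the upper cortical layers.

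The cells were divided by rule into Nos1 cells, with at least 1 UMI (unique molecular identifier, a tag that marks a captured mRNA molecule) of Nos1, Myh8 cells, with at least 1 UMI of Myh8 and 0 of Nos1, and other Lhx6 cells, with Lhx6 but neither of these genes. Nos1 marks long-range projection (LRP) neurons and Myh8 a type of Martinotti cell. Cells with more than 700 genes and under 10% of UMIs from mitochondrial genes were kept. In the order of stages, these were 3952, 2501, and 2980 cells of the 4478, 4440, and 3406 in the libraries. The Nos1 cells numbered 67, 434, and 547, the Myh8 cells 2, 29, and 155, and the other Lhx6 cells 3267, 1577, and 1735. The median was 7863, 3704.5, and 3073 UMIs per Nos1 cell and 5807, 3744, and 4606 UMIs per other Lhx6 cell. Myh8 cells had 11045 UMIs at P1 and 5731 at P5. The Myh8 cells of E16.5 held 0 UMIs of all 10 genes and were not compared.

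The classes carried their markers at P1 and P5, and the Nos1 class of E16.5 did so in fewer cells. Chodl, a further marker of LRP neurons, was detected in 51.6% of P1 Nos1 cells and 60.0% of those of P5, against 3.30% and 2.88% of other Lhx6 cells. At E16.5, it was detected in 15 of 67 Nos1 cells (22.4%) and 2.27% of other Lhx6 cells. Nr2f2, a transcription factor gene listed with Myh8 as a Martinotti marker, was detected in 63.2% of Myh8 cells at P5 against 18.4% of other Lhx6 cells. The Nos1 class also held markers of other cells before P5. A UMI of an excitatory neuron marker was found in 15 of its 67 cells (22.4%) in the E16.5 library, in 20 of 434 (4.61%) in that of P1 and in 3 of 547 (0.548%) in that of P5. Here, and where cells with an excitatory marker UMI are left out, the markers were Neurod2, Neurod6, Slc17a7, and Slc17a6. Cells with Tbr1 as their only such marker were not counted or removed. Meis2, Sp8, and Prox1, markers of Lhx6-negative inhibitory neurons, summed to 172, 58.4, and 6.11 CPM in Nos1 cells and to at most 6.13 CPM in other Lhx6 cells. Marker sums of astrocytes and radial glia, microglia, and vascular cells were at most 18.5 CPM in any class. The oligodendrocyte lineage sum, nearly all of it Mbp, was 40.4, 39.6, and 52.5 CPM in Nos1 cells and 19.2, 22.7, and 36.8 CPM in other Lhx6 cells, and Olig1 had 0 UMIs in Nos1 cells. The part of these other cells in the results below was not tested except where values without cells of an excitatory marker are given. The P1 library had the smallest share of kept cells (56.3%) and was processed with another Cell Ranger version than the others. The libraries shared 10 cell barcodes in all. Each stage was 1 library, so stage and library cannot be told apart, no p-values are given, and all intervals (95%) cover counting error only.

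For each class and library, the UMIs of all cells were added up and scaled to 1000000 UMIs (counts per that number, CPM). Ratios carry an exact interval for the ratio of 2 counts. A gene was called past 2-fold when its log2 ratio of CPM + 1 reached 1 in either direction, among genes with at least 10 UMIs in the pair of classes. In sums of cells, fewer cells with a transcript and fewer transcripts per cell cannot be told apart, so the share of cells with a UMI is given beside the main CPM values, also after each cell was thinned to 2000 UMIs. Levels were compared between classes and stages for the same gene and never between genes.

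**Figure D1:**
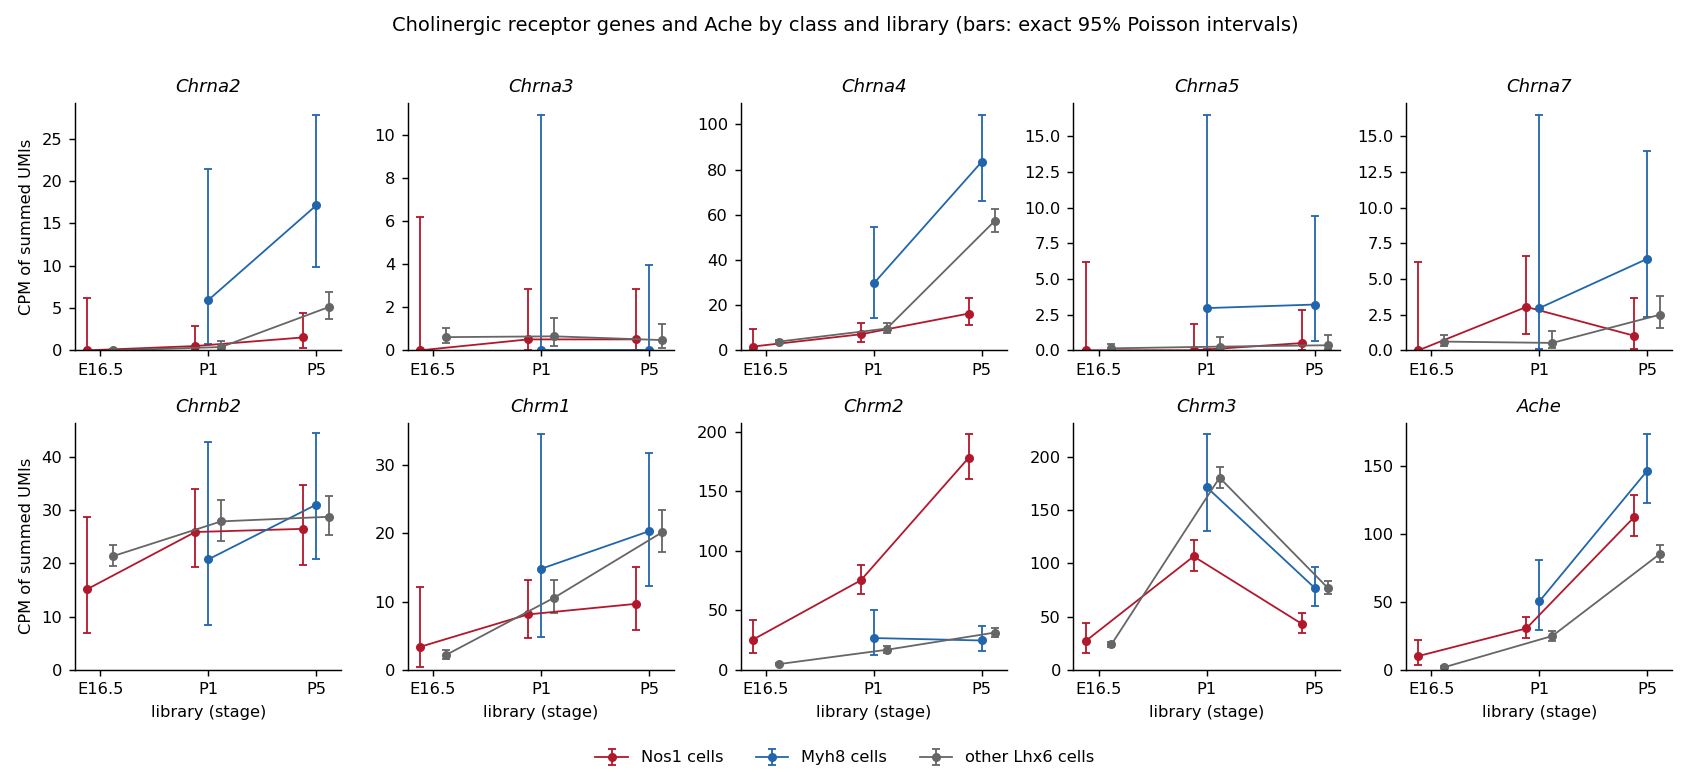
Each panel plots the CPM of summed UMIs of a gene against the library, for Nos1 cells, Myh8 cells and other Lhx6 cells, with exact 95% Poisson intervals. Myh8 cells are shown for P1 and P5 only. Chrm2 stands highest in Nos1 cells at all stages, Chrna4 is lowest in Nos1 cells at P5, and Chrm3 peaks at P1. Ache climbs from E16.5 to P5 in Nos1 cells and other Lhx6 cells, and from P1 to P5 in Myh8 cells.

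The regions before a RefSeq start of Chrm2, Chrna4, and Ache are shown because these genes carry the main contrasts. Chrm2 was higher in Nos1 cells, Chrna4 was lower in them at P5, and Ache climbed from E16.5 to P5 in Nos1 cells and other Lhx6 cells. Each line gives the 250 bases before the RefSeq start on GRCm38.p6, on the strand of the gene. The Chrna4 and Ache windows lie inside the GENCODE M21 genes, which start further upstream, at 181043546 and 137287519. Capitals mark GC boxes (GGGCGG, or its reverse complement CCGCCC), and overlapping boxes run together.
Chrm2, chr6:36387834-36388083, plus strand: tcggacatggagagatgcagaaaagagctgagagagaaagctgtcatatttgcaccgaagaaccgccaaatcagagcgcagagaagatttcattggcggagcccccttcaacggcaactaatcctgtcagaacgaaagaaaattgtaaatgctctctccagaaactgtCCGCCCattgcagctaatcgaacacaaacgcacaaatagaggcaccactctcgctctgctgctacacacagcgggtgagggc
Chrna4, chr2:181039178-181039427, minus strand: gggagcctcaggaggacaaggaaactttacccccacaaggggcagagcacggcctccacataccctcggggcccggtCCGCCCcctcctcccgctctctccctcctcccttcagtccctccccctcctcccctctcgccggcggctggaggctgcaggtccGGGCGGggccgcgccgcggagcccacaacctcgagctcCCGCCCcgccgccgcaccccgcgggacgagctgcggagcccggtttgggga
Ache, chr5:137288004-137288253, plus strand: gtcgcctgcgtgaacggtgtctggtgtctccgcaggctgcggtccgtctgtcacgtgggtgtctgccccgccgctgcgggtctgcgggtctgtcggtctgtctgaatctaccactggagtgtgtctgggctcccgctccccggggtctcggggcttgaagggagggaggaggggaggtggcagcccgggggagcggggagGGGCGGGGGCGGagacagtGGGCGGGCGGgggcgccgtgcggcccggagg

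The Chrm2 window held 1 GC box and 50% G and C bases. The Chrna4 window held 3 boxes and 74.4%, and the Ache window held 4 boxes and 73.6%. At least 1 GC box on either strand was found in 32.7% of all 32851 windows of this length, whose median G and C content was 52.4%. RefSeq windows were found for 8 of the 10 genes, and Chrna5 had a second one. None of these 9 windows contained TATAAA, the cyclic AMP response element TGACGTCA, or the octamer ATGCAAAT, which were found in 12.4%, 1.55%, and 1.60% of all windows. The Chrm3 and Chrnb2 windows had 0 GC boxes, at 61.2% and 59.6% G and C, as did the Chrna5 window that starts at 54980630, at 40%.

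Chrm2, the receptor gene coupled to Gi and Go proteins, was higher in Nos1 cells at every stage. Chrm2 (protein-coding gene on GRCm38 chromosome 6, 36388084 to 36528414 in GENCODE M21) reached 178 CPM (160 to 198) in Nos1 cells at P5 and 31.3 CPM (27.6 to 35.3) in other Lhx6 cells. The ratio of the Nos1 cells to the other Lhx6 cells was 5.30 (2.86 to 9.16) at E16.5, 4.47 (3.51 to 5.70) at P1, and 5.70 (4.84 to 6.72) at P5. These intervals overlapped, while the level itself differed between stages. In Nos1 cells, Chrm2 stood at 25.2 CPM (14.1 to 41.6) at E16.5 and 75.1 CPM (63.5 to 88.3) at P1. In other Lhx6 cells, it stood at 4.76 CPM (3.88 to 5.79) and 16.8 CPM (14.0 to 20.0). With an Lhx6 UMI also required in Nos1 cells, the log2 ratios were 2.31, 2.20, and 2.37, and without cells carrying an excitatory marker UMI 2.00, 2.19, and 2.47, in place of 2.19, 2.10, and 2.47. The study used Chrm2 as a marker of LRP neurons on these samples, so its direction here is not independent evidence.

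Chrm2 was also detected in more Nos1 cells. At P5, 40.6% of Nos1 cells (36.4 to 44.8) had a Chrm2 UMI, against 12.2% of other Lhx6 cells (10.7 to 13.9). After thinning, which left out 133 Nos1 cells and 199 other Lhx6 cells under 2000 UMIs, the shares were 32.6% and 5.99%. As a background for free RNA, the 21 cells of P5 with excitatory neuron markers and no UMI of Gad1, Gad2 or Lhx6 gave 9.52% (1.17 to 30.4), at a median of 3463 UMIs. The share in other Lhx6 cells lay within that interval and the share in Nos1 cells above it. These 21 cells are a weak background. They may express the genes themselves, with 46.8 CPM of Chrna4 and 70.2 CPM of Ache, and 2 of them had a Nos1 UMI. Nos1 cells made up 18.4% of kept cells at P5 and held 50.4% of the Chrm2 UMIs, compared with 15.2% of all UMIs. At P1 they held 49.2% of the Chrm2 UMIs. Myh8 cells had 24.6 CPM of Chrm2 (15.6 to 36.9) at P5, with an interval that overlapped that of other Lhx6 cells.

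Within Nos1 cells, Chrm2 differed with the number of Nos1 UMIs. At P5, the 81 cells with exactly 1 Nos1 UMI had 22.3 CPM of Chrm2 (8.98 to 46.0), near the level of other Lhx6 cells. Cells with 2 to 4 Nos1 UMIs had 120 CPM (76.3 to 181), those with 5 to 9 had 175 CPM (138 to 218), and the 237 cells with 10 or more had 239 CPM (210 to 271). At P1, the 126 cells with 1 Nos1 UMI had 29.6 CPM (17.8 to 46.2) and the 145 cells with 10 or more had 108 CPM (85.8 to 133). The median UMIs per cell in these 4 bins of P5 were 3390, 1877.5, 2474, and 3928, and the part of depth was not tested. Without the cells with 1 Nos1 UMI, a comparison added after the data were seen, the log2 ratio of Chrm2 between Nos1 cells and other Lhx6 cells at P1 was 2.46 in place of 2.10.

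**Figure D2:**
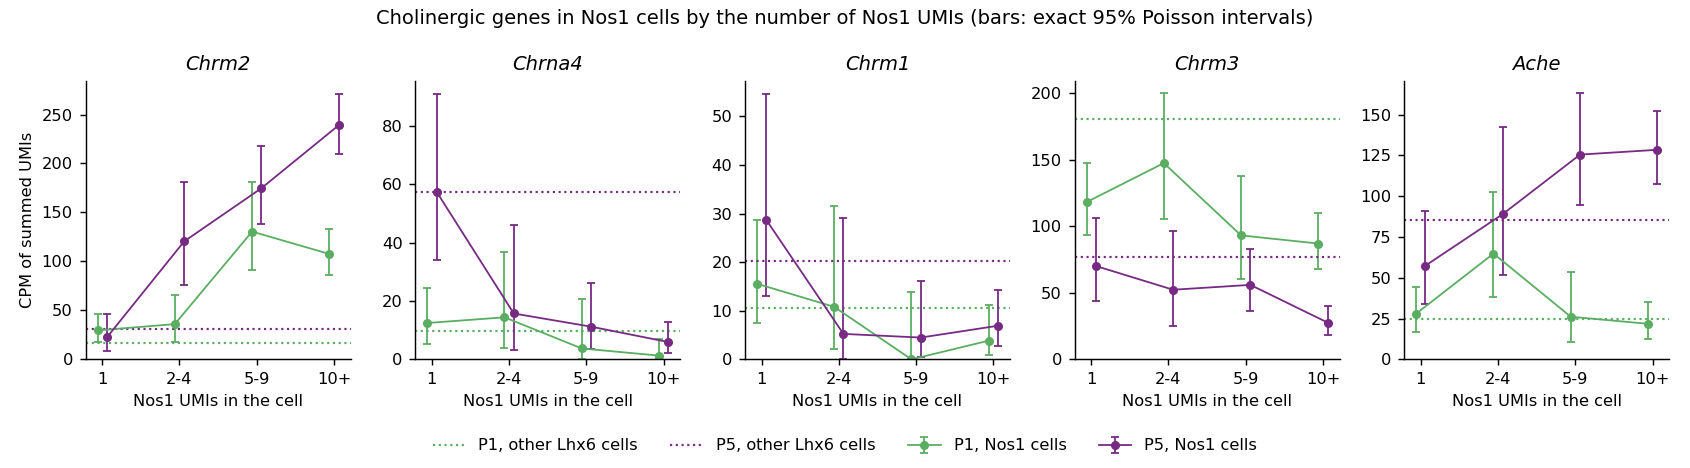
CPM of 5 genes in Nos1 cells of each postnatal library is plotted against the number of Nos1 UMIs in the cell, with exact 95% Poisson intervals, and dotted lines give the level in other Lhx6 cells of the same library. At P5, Chrm2 is higher and Chrna4 lower with more Nos1 UMIs, and cells with 1 Nos1 UMI lie near the dotted lines for both genes.

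Chrm2 also differed with Lypd1 and Dach1, genes that divide LRP neurons. Lypd1 encodes a Ly6-type protein that acts on nicotinic receptors, and Dach1 a transcription factor. At P1, Chrm2 was at 161 CPM (120 to 211) in the 55 Nos1 cells with Lypd1 and without Dach1. It was at 79.5 CPM (55.1 to 111) in the 98 cells with Dach1 and without Lypd1, and at 48.5 CPM (36.8 to 62.7) in the 278 cells with neither gene. The first interval did not overlap the others. At P5 the 221 Lypd1 cells had 248 CPM (216 to 284), the 27 Dach1 cells 183 CPM (109 to 290), and the 284 cells with neither gene 120 CPM (99.1 to 145). At P5, then, the Lypd1 and Dach1 cells did not differ beyond counting error, and cells with neither gene were lower than Lypd1 cells.

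Among other Lhx6 cells, Chrm2 differed with Cort and Tac1, which encode the neuropeptides cortistatin and the tachykinins. At P5 it stood at 44.5 CPM (38.3 to 51.5) in the 733 cells with Cort and at 18.4 CPM (14.5 to 22.9) in the 1002 cells without. In the 117 cells with Tac1 it was 65.8 CPM (46.8 to 90.0), against 28.6 CPM (25.0 to 32.6) in those without. The same order was seen at P1, with 56.5 CPM (36.6 to 83.4) in cells with Tac1 and 14.4 CPM (11.8 to 17.4) without. The 52 other Lhx6 cells with Chodl at P1 had 71.2 CPM (44.6 to 108), near the level of Nos1 cells. At P5 the 50 such cells had 50.5 CPM (26.9 to 86.4), and this interval overlapped that of cells without Chodl, 30.7 CPM (27.0 to 34.7). Cells with a marker UMI tended to be deeper: the median was 5333 UMIs with Cort and 3926 without at P5, and the part of depth in these contrasts was not tested.

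Chrna4 showed the opposite order of classes at P5. Chrna4 (chromosome 2, 181018380 to 181043546) encodes a subunit that assembles with the product of Chrnb2 into the main high-affinity nicotinic receptor of the brain. It was at 16.3 CPM (11.1 to 23.0) in Nos1 cells, 57.3 CPM (52.3 to 62.6) in other Lhx6 cells, and 83.5 CPM (66.0 to 104) in Myh8 cells. These 3 intervals did not overlap. The ratio of Nos1 cells to other Lhx6 cells was 0.285 (0.192 to 0.407), and that of Myh8 cells to other Lhx6 cells was 1.46 (1.13 to 1.85). Chrna4 was among the genes the study placed on its spatial panel from these samples, so this direction is not independent evidence.

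Over whole classes, the separation of Nos1 cells from other Lhx6 cells was not detectable before P5. At P1, Chrna4 stood at 7.11 CPM (3.89 to 11.9) in Nos1 cells and 9.65 CPM (7.57 to 12.1) in other Lhx6 cells. At E16.5, 1 UMI in Nos1 cells stood against 82 in other Lhx6 cells, and the ratio of 0.435 had an interval from 0.0109 to 2.49. Other Lhx6 cells were 5.94-fold higher at P5 than at P1 (4.64 to 7.69), and Nos1 cells 2.29-fold (1.19 to 4.65). These ratio intervals met only between 4.64 and 4.65. Myh8 cells had 29.6 CPM (14.2 to 54.5) at P1, from 10 Chrna4 UMIs in 8 of 29 cells (27.6%). After thinning, which takes more from these deep cells, the share was 3.45% (0.0873 to 17.8), against 1.24% of other Lhx6 cells.

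The share of cells with a Chrna4 UMI gave the same order at P5. It was 35.5% in Myh8 cells (28.0 to 43.6), 19.1% in other Lhx6 cells (17.3 to 21.1), and 4.39% in Nos1 cells (2.83 to 6.46). After thinning the shares were 14.5% (9.30 to 21.1), 9.83% (8.39 to 11.4), and 3.14% (1.68 to 5.31). The intervals of Myh8 cells and other Lhx6 cells then overlapped. The 21 excitatory-type cells had a share of 19.0% (5.45 to 41.9), and that interval overlapped those of all 3 classes. The share alone therefore did not set other Lhx6 cells apart from these few cells, which may express Chrna4 themselves. The part of free RNA was not tested. Nos1 cells with 1 Nos1 UMI had 57.5 CPM of Chrna4 (34.0 to 90.8) at P5, the level of other Lhx6 cells, and those with 10 or more had 5.93 CPM (2.17 to 12.9). The P1 library had the same order, with 12.4 CPM (5.37 to 24.5) and 1.28 CPM (0.0324 to 7.14). Without the cells with 1 Nos1 UMI, the log2 ratio to other Lhx6 cells at P5 was -2.62 in place of -1.75.

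Other Lhx6 cells were not uniform for Chrna4 at P5. The 321 cells with Pdyn, the prodynorphin gene, had 89.6 CPM (76.7 to 104), against 47.6 CPM (42.4 to 53.2) without. The levels were low in cells with Calb2 (the calcium-binding protein calretinin), Tac1, or Etv1 (a transcription factor): 10.5 CPM (4.55 to 20.8) in the 137 cells with Calb2, 10.1 CPM (3.72 to 22.1) in the 117 cells with Tac1, and 18.6 CPM (10.8 to 29.8) in the 207 cells with Etv1. Cells without those genes had 61.9, 60.9, and 62.0 CPM. The 177 cells without a Mef2c UMI had 114 CPM (89.2 to 143), compared with 52.5 CPM (47.5 to 57.9) in cells with Mef2c, a transcription factor gene. The 101 cells without Mef2c at P1 had 0 Chrna4 UMIs, with an upper limit of 14.0 CPM that lies above the level of the cells with Mef2c, 9.99 CPM. At P5, cells with Tac1 were thus low in Chrna4 and high in Chrm2, as were Nos1 cells. For Etv1 the direction was the same at P1, with 1 UMI of Chrna4 in 158 cells with Etv1 (1.07 CPM, 0.0271 to 5.95) and 10.8 CPM (8.49 to 13.6) in cells without.

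**Figure D3:**
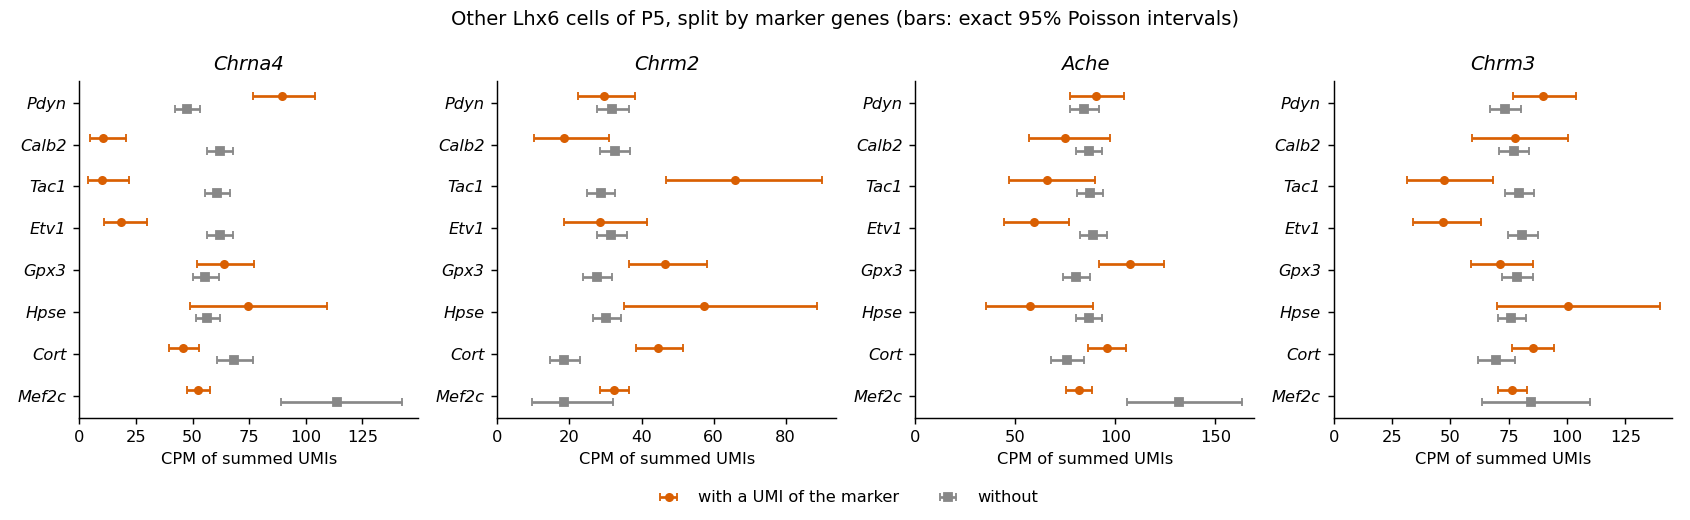
For other Lhx6 cells of P5, the CPM of Chrna4, Chrm2, Ache, and Chrm3 is plotted in cells with a UMI of each of 8 marker genes (circles) and in cells without (squares), with exact 95% Poisson intervals. Chrna4 is high with Pdyn and low with Calb2, Tac1, and Etv1, and Chrm2 is high with Tac1 and Cort.

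Chrna2 appeared only after E16.5 at this depth. Chrna2 (chromosome 14, 66135039 to 66152948) encodes a nicotinic subunit, and 0 UMIs were counted in the 3952 cells of E16.5. In the 3267 other Lhx6 cells, a count of 0 allows a share of up to 0.0918%. At P1, 7 UMIs were counted in 2501 cells, and at P5, 82 in 2980. In other Lhx6 cells the P5 level was 5.13 CPM (3.71 to 6.91), which is 13.1-fold above P1 (4.2 to 66.1). The study names Chrna2 among its Martinotti markers, so its direction is not independent evidence.

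At P5, Myh8 cells had the highest Chrna2 level of the 3 classes. They had 17.1 CPM (9.79 to 27.8) from 16 UMIs in 14 of 155 cells, a ratio to other Lhx6 cells of 3.34 (1.75 to 6.05). The share of cells with a UMI was 9.03% (5.03 to 14.7) in Myh8 cells and 1.84% (1.26 to 2.59) in other Lhx6 cells. After thinning these shares were 3.29% (1.08 to 7.51) and 0.781% (0.404 to 1.36), with overlapping intervals. The 21 excitatory-type cells had 0 UMIs of Chrna2, which allows a share of up to 14.3%. Nos1 cells had 3 UMIs, 1.53 CPM (0.315 to 4.47), at a ratio of 0.298 (0.0591 to 0.930). Kept cells without Nos1, Myh8 or Lhx6 had 12.4 CPM (7.59 to 19.2), which overlapped the interval of the Myh8 cells and not that of other Lhx6 cells. Their share after thinning was 3.23% (1.62 to 5.70), near that of Myh8 cells. Myh8 cells held 19.5% of the 82 Chrna2 UMIs of P5, with 5.20% of all kept cells and 7.25% of all UMIs.

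Chrnb2 hardly differed between classes or stages. Chrnb2 (chromosome 3, 89746195 to 89764632) stood in other Lhx6 cells at 21.4 CPM (19.4 to 23.4), 27.9 CPM (24.3 to 31.9), and 28.8 CPM (25.2 to 32.6) in the order of stages. Nos1 cells had 15.1, 25.9, and 26.5 CPM, and the postnatal Myh8 cells 20.7 and 31.0 CPM. The ratio of Nos1 cells to other Lhx6 cells at P5 was 0.921 (0.669 to 1.25), so a difference of 2-fold lay outside the interval. The lower Chrna4 of Nos1 cells at P5 was thus not found at that size in Chrnb2, whose class intervals all overlapped. The Chrnb2 interval of Myh8 cells at P5, 20.8 to 44.6 CPM from 29 UMIs, was too wide to exclude a difference as small as that of Chrna4. In single other Lhx6 cells of P5 thinned to 2000 UMIs, Chrnb2 was detected in 11.3% of the 151 cells with Chrna4 and in 5.49% of cells without it.

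The other nicotinic genes were near the detection limit. Chrna7, whose subunit can form receptors on its own, had 17, 13, and 31 UMIs in all kept cells in the order of stages. At P5, 21 of these lay in other Lhx6 cells (2.51 CPM, 1.55 to 3.83) and 6 in Myh8 cells (6.42 CPM, 2.36 to 14.0). At P1, 6 lay in Nos1 cells (3.05 CPM, 1.12 to 6.63) and 4 in other Lhx6 cells, a ratio of 5.84 (1.39 to 28.2). At P5, Nos1 cells had 2 UMIs, and the ratio was 0.407 (0.0462 to 1.66). Chrna3 had at most 14 UMIs per library and Chrna5 at most 8. These genes are neighbours on chromosome 9, where their annotated ends lie 2331 bases apart, and differences between classes rest on single UMIs. At P5, Chrna5 had 3 UMIs in Myh8 cells and 3 in other Lhx6 cells, a ratio of 8.97 (1.2 to 67.0).

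Chrm3 had its highest levels at P1 in Nos1 cells and other Lhx6 cells. In other Lhx6 cells, Chrm3 (chromosome 13, 9875486 to 10360847) stood at 23.9 CPM (21.9 to 26.1), 181 CPM (171 to 190), and 77.2 CPM (71.4 to 83.4) in the order of stages. The P1 level was 7.55-fold above E16.5 (6.82 to 8.38), and the ratio of P5 to P1 was 0.427 (0.389 to 0.469). The decline from P1 to P5 was of like size in Nos1 cells, 0.406 (0.312 to 0.525), and in Myh8 cells, 0.448 (0.313 to 0.645). The P1 library differed from the others in its share of kept cells and in its processing, and the part of the processing in the P1 peak was not tested. With stricter filters of over 1000 genes and under 5% mitochondrial UMIs, the log2 ratio of P1 to E16.5 was 3.07 in place of 2.87 and that of P5 to P1 was -1.42 in place of -1.22, so the peak was as large in those cells.

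Chrm3 was lower in Nos1 cells than in other Lhx6 cells after birth. It was at 107 CPM (92.7 to 122) in Nos1 cells at P1, a ratio of 0.590 (0.508 to 0.683), and at 43.3 CPM (34.6 to 53.5) at P5, a ratio of 0.561 (0.442 to 0.704). At E16.5 the ratio was 1.13 (0.639 to 1.85). Myh8 cells had 172 CPM (130 to 222) at P1 and 77.1 CPM (60.3 to 97) at P5, within the counting error of other Lhx6 cells. At P1, 49.1% of other Lhx6 cells (46.6 to 51.6) had a Chrm3 UMI, against 31.1% of Nos1 cells (26.8 to 35.7) and 0 of 29 excitatory-type cells, for which a count of 0 allows up to 10.3%. After thinning, the shares were 27.4% and 18.3%. Within Nos1 cells at P5, Chrm3 ran from 70.2 CPM (44.0 to 106) with 1 Nos1 UMI to 27.7 CPM (18.4 to 40.0) with 10 or more.

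Chrm1 also stood lower in Nos1 cells at P5. Chrm1 (chromosome 19, 8663789 to 8683587) was at 2.17 CPM (1.59 to 2.89), 10.6 CPM (8.38 to 13.1), and 20.2 CPM (17.2 to 23.4) in other Lhx6 cells in the order of stages. Nos1 cells had 3.37, 8.12, and 9.68 CPM, and the ratio at P5 was 0.480 (0.282 to 0.773). Myh8 cells had 20.3 CPM (12.2 to 31.8) at P5. Without cells carrying an excitatory marker UMI, the log2 ratio of Chrm1 between Nos1 cells and other Lhx6 cells was -1.20 at P1 in place of -0.34 and -1.05 at P5 in place of -0.99, and that of P5 to P1 in Nos1 cells was 1.05 in place of 0.23. The excitatory-type cells of P5 had 70.2 CPM (25.8 to 153), above the intervals of Nos1 cells and other Lhx6 cells. The 3 muscarinic genes thus fell into different orders at P5, with Chrm2 higher and Chrm1 and Chrm3 lower in Nos1 cells.

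Ache had the largest ratio of P1 to E16.5 among the 8 genes with at least 10 UMIs in other Lhx6 cells. There Ache (chromosome 5, 137287519 to 137294466) was at 1.89 CPM (1.35 to 2.57), 24.9 CPM (21.5 to 28.7), and 85.6 CPM (79.4 to 92.1) in the order of stages. The ratio of P1 to E16.5 was 13.2 (9.34 to 19.1), and that of P5 to P1 was 3.44 (2.93 to 4.05). The rank depends on the pseudocount: with 5 CPM, the log2 ratio of P1 to E16.5 was 2.12 for Ache and 2.68 for Chrm3. From P1 to P5, Nos1 cells differed 3.70-fold (2.77 to 5) and Myh8 cells 2.91-fold (1.75 to 5.14), with overlapping intervals. At P5, 29.0% of other Lhx6 cells had an Ache UMI (26.9 to 31.2), against 1.16% at E16.5 (0.824 to 1.59), and 12.6% and 0.194% after thinning. The excitatory-type cells had 28.6% at P5 (11.3 to 52.2), near the share in other Lhx6 cells, so the share did not set other Lhx6 cells apart from them. Excitatory-type cells may express Ache themselves, and the part of free RNA was not tested. The study placed Ache in a gene module that changes over development in these samples, so its direction is not independent evidence.

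At P1 and P5, class differences in Ache were smaller than its differences between stages. At P5, Myh8 cells had 147 CPM (123 to 173), Nos1 cells 113 CPM (98.2 to 128), and other Lhx6 cells 85.6 CPM. The ratio to other Lhx6 cells was 1.71 (1.42 to 2.06) for Myh8 cells and 1.32 (1.13 to 1.53) for Nos1 cells, and the intervals of Myh8 and Nos1 levels overlapped. After thinning, the shares of cells with an Ache UMI were 25.0%, 19.1%, and 12.6%. Thinning is a random draw, and with another seed the share in other Lhx6 cells was 14.7%. At E16.5, Nos1 cells had 10.1 CPM (3.71 to 22) from 6 UMIs, a ratio of 5.35 (1.85 to 12.7). The log2 ratio at E16.5 was 2.20 without cells carrying an excitatory marker UMI, in place of 1.94. Within Nos1 cells, those with Lypd1 and without Dach1 had 9.29 CPM (1.92 to 27.1) at P1 and 127 CPM (104 to 154) at P5.

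**Figure D4:**
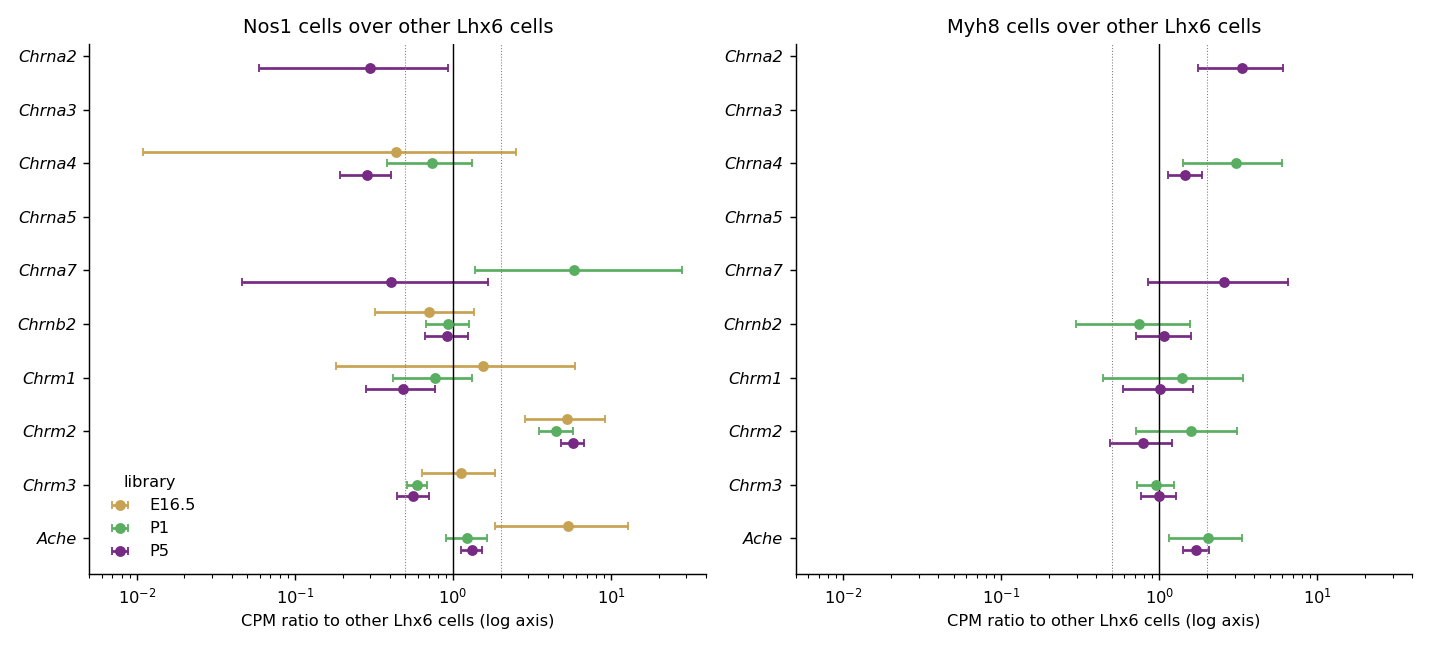
The CPM ratio of Nos1 cells (left) and Myh8 cells (right) to other Lhx6 cells is plotted on a log axis for each gene and library with at least 10 UMIs in the classes and at least 1 in each, with exact 95% intervals and dotted lines at 2-fold. Chrm2 lies above 2-fold in Nos1 cells in all 3 libraries, and Chrna4 lies below it at P5.

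Counts over the 10 genes put these values beside the rest of the transcriptome. Between Nos1 cells and other Lhx6 cells, 8 of the 10 had at least 10 UMIs at E16.5 and P5, and 7 at P1. At E16.5, 2 were higher past 2-fold (Chrm2 and Ache) and 0 lower, where 6.49% of all genes were higher and 8.69% lower. At P1, 2 were higher (Chrm2 and Chrna7) and 0 lower, where 4.25% of all genes were higher and 3.61% lower. The Chrna7 call rests on 10 UMIs, and fewer than 10 were left with Lhx6 required or without cells of an excitatory marker. At P5, 1 was higher (Chrm2) and 2 lower (Chrna4 and Chrna2), where 4.19% of all genes were higher and 6.99% lower. Chrna2 entered this count only through other Lhx6 cells, where it was high. Without cells of an excitatory marker, Chrm1 was also lower at P1 and P5, and Chrna4 was called lower at E16.5 (log2 ratio of -2.21). All 67 Nos1 cells of E16.5 held only 1 Chrna4 UMI, so that call is no support for a difference. The median log2 ratio of the cholinergic genes at P5 was -0.81, against -0.07 over all genes.

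Between Myh8 cells and other Lhx6 cells, 1 of 6 cholinergic genes was higher at P1 (Chrna4) and 0 lower, where 4.77% of all genes were higher and 15.1% lower. At P5, 2 of 8 were higher (Chrna2 and Chrna7) and 0 lower, with 2.29% and 6.48% of all genes. The ratio for Chrna7 was 2.56 (0.846 to 6.56), an interval that includes 1. The median of the cholinergic genes was 0.54 at P1 and 0.32 at P5 on the log2 scale, and that of all genes -0.07 and -0.01. The P1 values rest on 29 cells: with the stricter cell filter only 3 remained, in which Ache and Chrm2 were at log2 ratios of -4.22 and -4.16 in place of 0.99 and 0.63.

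Between stages, most cholinergic genes past 2-fold were higher at the later stage. In other Lhx6 cells, 5 of 8 were higher at P1 than at E16.5 (Chrna4, Chrm1, Chrm2, Chrm3, and Ache) and 0 lower, where 10.2% of all genes were higher and 3.20% lower. At P5 against P1, 4 of 8 were higher (Chrna2, Chrna4, Chrna7, and Ache) and Chrm3 was lower, where 8.94% of all genes were higher and 10.2% lower. In Nos1 cells, 3 of 6 were higher at P5 than at P1 (Chrna4, Chrm2, and Ache) and Chrm3 was lower, where 7.61% of all genes were higher and 12.8% lower. In Myh8 cells, 3 of 7 were higher (Chrna2, Chrna4, and Ache) and Chrm3 was lower, with 11.5% and 12.5% of all genes. Chrna2 in both classes and Chrna7 in other Lhx6 cells had under 10 UMIs at P1 and entered the counts only through P5, where they were high, so these counts are no support for a direction. The comparisons share the P1 library. Scaling by the median of gene ratios in place of the total divides out a median log2 ratio of 0.20 for P1 against E16.5 in other Lhx6 cells and of -0.17 for P5 against P1 in Nos1 cells. The former lowered the log2 ratio of Chrna4 from 1.13 to 0.96, under 2-fold.

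Few cells had several of these transcripts detected at once. At 2000 UMIs per cell many transcripts go undetected, so these shares do not tell how often the genes are expressed together. Thinning took the share of other Lhx6 cells with an Ache UMI at P5 from 29.0% to 12.6%. After thinning to 2000 UMIs, 58.5% of other Lhx6 cells at P5 had none of the 10 genes, 30.9% had 1, and 1.63% had 3 or more, with at most 4 in a cell. Among Nos1 cells of P5, 45.9% had none and 40.8% had 1. At E16.5, 90.2% of other Lhx6 cells and 86.2% of Nos1 cells had none. In Nos1 cells of P5, Ache was found in 18.5% of the 135 cells with Chrm2 and in 19.4% of those without. It was found in 7 of the 23 cells with Chrnb2 (30.4%) against 18.4% without. For Chrm3 the values were 4 of 30 cells (13.3%) against 19.5%, and both contrasts rest on few cells. Among the other Lhx6 cells of P5, Ache was found in 19.9% of the 151 cells with Chrna4 against 11.8% without, and in 17.3% of the 202 cells with Chrm3 against 11.8%. For Chrnb2 in this class, the shares were 11.8% of 93 cells against 12.6%. In Myh8 cells of P5, Ache was found in 36.4% of the 22 cells with Chrna4 against 23.1% without. These shares are descriptions, with no test.

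The remaining nicotinic and muscarinic receptor genes were almost undetected. Of the 10 other nicotinic subunit genes, the most frequent was Chrne with 19 UMIs at P5, and Chrnb4, which lies next to Chrna3, had 1 at P1 and 1 at P5. Chrm4 had 2 UMIs at P5 and Chrm5 15. Bche, which encodes the other cholinesterase, had at most 10 UMIs per library. Chat and Slc18a3, which make acetylcholine and load it into vesicles, had 0 UMIs in all 3 libraries, so no cholinergic neurons were detectable by these markers. Slc5a7, the choline transporter, differed from them. At P5 it had 36 UMIs in 32 of 547 Nos1 cells (5.85%), 18.3 CPM (12.8 to 25.4), against 1 UMI in 1735 other Lhx6 cells and 2 in 155 Myh8 cells. The P1 library had 8 UMIs of it in Nos1 cells and 2 in other Lhx6 cells. Isl1, a transcription factor gene of cholinergic neurons, had 0 UMIs in all 3 classes, but 30 UMIs in the E16.5 cells without Nos1, Myh8 or Lhx6.

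Among the 8 genes for nicotinic receptor chaperones and Ly6-type modulators, Lypd1 showed the largest class difference. It was at 250 CPM (228 to 273) in Nos1 cells and 14.6 CPM (12.1 to 17.4) in other Lhx6 cells at P5, a log2 ratio of 4.01, and it was at 64.0 and 7.04 CPM in these classes at P1. The study reports Lypd1 as a marker of a subtype of LRP neurons in these samples, so its direction is not independent evidence. Lypd6 had the reverse order, with 129 CPM (113 to 146) in Nos1 cells, 288 CPM (276 to 300) in other Lhx6 cells, and 557 CPM (510 to 607) in Myh8 cells at P5. In other Lhx6 cells, Lynx1, a membrane-bound brake on nicotinic receptors, was at 0.189 CPM (0.0514 to 0.483), 2.22 CPM (1.29 to 3.55), and 47.1 CPM (42.6 to 52.0) in the order of stages. Nos1 cells had 27.0 CPM of Lynx1 (20.2 to 35.3) at P5. Tmem35a, a chaperone of nicotinic receptors, went the other way, from 159 CPM (154 to 164) at E16.5 to 111 CPM (103 to 118) and 42.8 CPM (38.5 to 47.5). Of the 8 genes, 4 were higher and 1 lower past 2-fold at P5 than at P1 in other Lhx6 cells, where 8.94% of all genes were higher and 10.2% lower, and 6 higher and 1 lower in Nos1 cells, where 7.61% and 12.8% of all genes were.

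**Figure D5:**
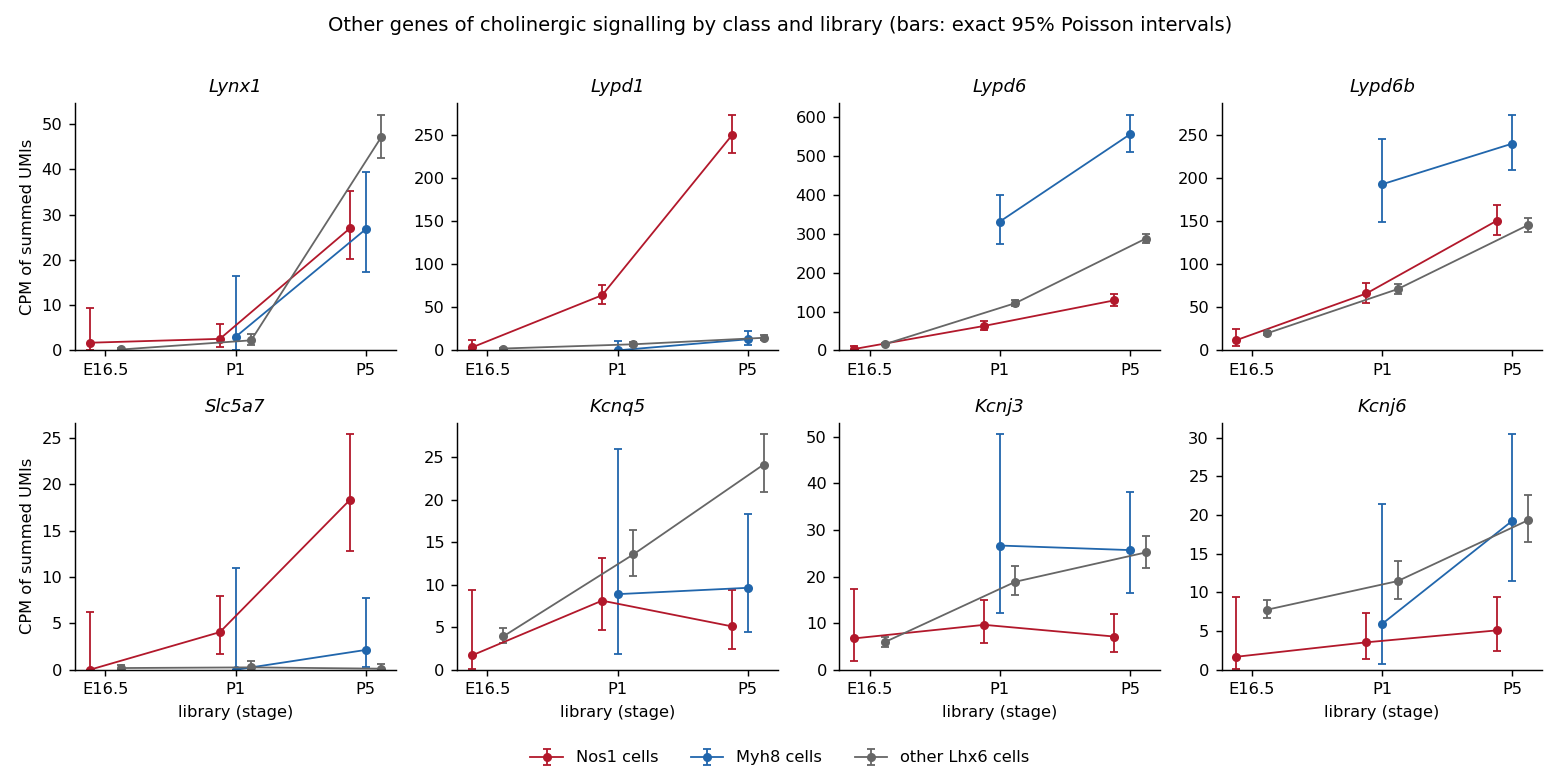
The CPM of 8 further genes of cholinergic signalling is plotted against the library for the 3 classes, with exact 95% Poisson intervals. Lypd1 and Slc5a7 are high in Nos1 cells, Lypd6 in Myh8 cells, and the potassium channel genes Kcnq5, Kcnj3, and Kcnj6 are low in Nos1 cells at P5, while Lynx1 is near 0 until P1.

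Of 8 genes for channels that muscarinic receptors act on, 4 were lower and 1 higher in Nos1 cells than in other Lhx6 cells past 2-fold at P5, and 3 were within 2-fold, where 6.99% of all genes were lower and 4.19% higher. Their median log2 ratio was -0.83, against -0.07 over all genes. Kcnq5, a channel of the M-current, was at 5.09 CPM (2.44 to 9.37) in Nos1 cells and 24.1 CPM (20.9 to 27.7) in other Lhx6 cells. Kcnj6 and Kcnj3, subunits of the potassium channels that open with Gi and Go proteins, were at 5.09 CPM (2.44 to 9.37) and 7.13 CPM (3.90 to 12) in Nos1 cells, and 19.3 CPM (16.5 to 22.5) and 25.2 CPM (21.9 to 28.8) in other Lhx6 cells. Genes of the G proteins and phospholipases were alike in the classes, with 0 of 8 past 2-fold at P5 and a median of 0.05. The receptor gene higher in Nos1 cells, Chrm2, thus stood beside lower levels of the Kcnj3 and Kcnj6 channel genes.

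The genes whose levels were most like those of each cholinergic gene over the 9 sums of class and library are given as a description, with no test. The 9 sums share 3 libraries, and 1 of them, the Myh8 cells of E16.5, holds 2 cells. On log2(CPM + 10), Chrm2 was most like Gm1604a, Penk, and Cdkn1a (Pearson r of 0.969, 0.967, and 0.963), Chrna4 most like Gng13, Ptgs1, and Hspb3 (0.996, 0.995, and 0.993), and Ache most like Reep2, Pgm2l1, and Gnaz (0.993, 0.992, and 0.991). The nearest genes were Stum for Chrm1 (0.994) and Rpl36al for Chrm3 (0.984). Of the 18 genes named by this rule for 6 cholinergic genes, 7 were kept with the 8 sums left without those 2 cells, so most of these likenesses rest on the choice of sums. All those of Chrna4 were kept, and none of those of Chrm2 or Chrm3.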

How the data were processed

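Whole-number UMI counts per gene and cell, without normalization, were deposited by the authors, who used Cell Ranger (3.1.0 for E16.5 and P5, 3.0.2 for P1) on the GRCm38 build. The libraries held 25638779, 15654107, and 13429055 UMIs. Cells were filtered and divided into classes as described above, doublets were not called, and counts were summed per class and library. CPM intervals are exact Poisson, shares have Clopper-Pearson intervals, and ratios have exact conditional binomial intervals. Log2 ratios use a pseudocount of 1 CPM. A count of 0 allows up to 3 counts. Excitatory-type cells had at least 3 UMIs of 5 excitatory markers, Tbr1 included, and no Gad1, Gad2 or Lhx6. This rule was chosen after the data were seen. Members and gene lists were chosen with earlier results of these data known. Named pathway genes are, per list, up to 3 with the largest difference at P5. Chrnb4, Chrm4 and Bche were named after their values were seen. Likeness was computed for members with at least 100 UMIs over the sums. Its result for Chrnb2 is not reported here. Coordinates are from GENCODE M21. The steps were tested on simulated data. Python 3.11.15, numpy 2.4.6, scipy 1.17.1, pandas 2.3.3, and matplotlib 3.10.9 were used.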

Additional observations from a re-analysis of the deposited data

How the results depend on the processing

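Each stage is 1 library, so there was no replicate to leave out. No paired analysis was possible because no group has a second sample. In total, 14 alternatives covering the cell filter, class rule, scaling, pseudocount, minimum of UMIs, and possible doublets were run. Of 126 counts of members past 2-fold, 108 stayed within 1.5 times the reported count. Between Nos1 and other Lhx6 cells, the count at E16.5 went from 2 to 5 with a pseudocount of 0.1 and to 1 with at least 50 UMIs. At P1 it went from 2 to 1 with Lhx6 required, with a pseudocount of 5, and with at least 50 UMIs, and at P5 from 3 to 5 with a pseudocount of 0.1. Between Myh8 and other Lhx6 cells at P1, it went from 1 to 3 with the stricter cell filter (3 Myh8 cells) and with at least 2 UMIs of Myh8 (7 cells). It went to 2 with the mean over cells, a pseudocount of 0.1, without the top 5% of cells by UMIs, and without cells with an excitatory marker, and to 4 with no minimum. At P5 it went from 2 to 4 with at least 2 UMIs of Myh8 (19 cells) and to 1 with a pseudocount of 5 or at least 50 UMIs. From P1 to P5 in other Lhx6 cells, it went from 5 to 3 with a pseudocount of 5 or at least 50 UMIs. Fewer genes are tested at 50 UMIs and fewer cells counted under the class and cell rules. Otherwise the cause was not tested.

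Of 891 log2 ratios, 858 kept their value within counting error. The sign changed in 29, of which 28 were reported under 2-fold, Ache and Chrm2 in the 3 Myh8 cells of P1 among them, and 1 past it: Chrna7 in Myh8 over other Lhx6 cells at P5 went from 1.08 to -1.81 with at least 2 UMIs of Myh8. Chrm2 in Nos1 over other Lhx6 cells stayed between 1.63 and 2.98 at E16.5, 1.88 and 2.46 at P1, and 2.34 and 2.69 at P5 on the log2 scale, and Chrna4 at P5 between -2.62 and -1.55. Over all genes, 28 of 126 counts past 2-fold differed by over 1.5 times. Nos1 over other Lhx6 cells gave 603 to 3592 genes at E16.5 (reported 2060), 380 to 1610 at P1 (1021), and 645 to 2023 at P5 (1486), and Myh8 over other Lhx6 cells 836 to 5470 at P1 (2503) and 193 to 4640 at P5 (1147). In other Lhx6 cells, P1 over E16.5 gave 952 to 3007 (1910) and P5 over P1 1373 to 3809 (2662), and P5 over P1 gave 1437 to 3689 in Nos1 cells (2410) and 799 to 5869 in Myh8 cells (2311). Of the 18 genes most like a member, 7 remained with log2(CPM + 1), 4 with the 6 sums of P1 and P5, and 7 without the Myh8 cells of E16.5. Of 180 thinned shares, 150 kept their value within counting error and 30 did not, with thinning to 1000 UMIs or another random seed. Depth limits Chrna3, Chrna5, and Chrna7, and every value in Nos1 cells of E16.5.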
